A study of Homo sapiens with 6 samples.

Results

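Glycosyltransferases and glycan sulfotransferases, the Golgi enzymes that build sugar chains on proteins and lipids and decorate them with sulfate, were examined in T98G cells with and without CBX8. The members were the gene symbols of the count table that match the family names GALNT, B3GALT, B3GNT, B4GALT, ST3GAL, ST6GAL, ST8SIA, FUT, MGAT, HS2ST, HS3ST, HS6ST, NDST, EXT, CHST, CHSY and HAS, which gave 124 of 57133 symbols. The rule reads gene names and no measured value, although the members were chosen with earlier results of these data known. The symbols include pseudogenes and antisense transcripts that share a name stem, such as MGAT2P1 and MGAT3-AS1. Upon WT CBX8 re-expression, 8 members rose and 7 fell among the 57 that had enough reads to test. Together these were 26.3%, beside 12.9% of all tested genes. The changes ran from a 16.3-fold rise of GALNT16 to a 2.8-fold fall of HS3ST1.

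T98G is an established human glioblastoma line. The libraries came from its CBX8 knockout, in which CBX8 had been disrupted by CRISPR and transfected cells had been selected with puromycin. No step that isolates a single clone is described. CBX8 KO is this line carrying the empty TetOFUW vector, and WT CBX8 re-expression is the same line carrying FUW-CBX8 under doxycycline control, each with 3 libraries of poly(A)-selected mRNA. According to the labels, doxycycline was given at 1 μg/ml for 72 h in both groups. By the study's methods both groups carry the CBX8 disruption and differ in the vector insert. The labels of the re-expression libraries, however, name only the T98G line as their source and give the genotype as wild type. The vectors were delivered by lentivirus together with rtTA, and stable lines came from a week of puromycin and hygromycin selection. Effects of separate transduction and selection therefore cannot be told apart from those of CBX8. The unedited parental line was not analysed here, so the CBX8 level reached cannot be set beside the endogenous one. The labels do not say whether the replicates were separate cultures, so the p-values measure the spread between these libraries only.

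Total counts lay between 7950190 and 8659796 per library. CBX8, a chromodomain subunit of Polycomb repressive complex 1, had 96, 104 and 83 reads in the CBX8 KO libraries and 30372, 31408 and 27791 upon WT CBX8 re-expression, so every library matched its label. Of the glioblastoma and glial markers, VIM, CD44, FN1 and TNC were abundant, GFAP had 13 to 30 reads and OLIG2 14 to 38 reads per library, NES had at most 4 reads, and S100B and SOX2 had none. The immune markers CD14 and ITGAM had at most 14 reads. The endothelial markers PECAM1 and CDH5 and the neuronal marker RBFOX3 had at most 1 read per library, the immune marker PTPRC and the epithelial markers EPCAM and CDH1 had at most 4, while the epithelial keratin KRT8 had 642 to 853 reads and the neuronal gene SNAP25 69 to 109. Of these marker genes TNC, FN1 and KRT8 were higher upon WT CBX8 re-expression (log2 fold changes 1.39, 0.22 and 0.23) and CD44 was lower (-0.21), and the part of such shifts in the results below was not tested.

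Glycans are assembled stepwise, without a template. Polypeptide GalNAc-transferases (GALNT) start mucin-type O-glycans, which galactosyltransferases extend and sialyltransferases cap. The MGAT enzymes set the number of branches on N-glycans. Heparan sulfate and chondroitin sulfate are long chains on proteoglycan core proteins: EXT1 and EXT2 polymerize the heparan sulfate backbone, chondroitin synthases (CHSY) the chondroitin backbone, and NDST, HS2ST, HS6ST, HS3ST and CHST enzymes place sulfates at defined positions, which are the parts that growth factors, proteases and matrix proteins recognize. Glioblastoma cells are surrounded by a matrix rich in hyaluronan and such proteoglycans.

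The members with larger changes are shown by the DNA around their start sites, because Polycomb proteins, CBX8 among them, are known to occupy CpG-rich promoters. Windows of 300 bases around a RefSeq transcription start, the first listed for each gene, are given 5′ to 3′ on the gene's strand. They are those of GALNT16 and CHST7, which rose, and HS3ST1 and HS6ST3, which fell. The coordinates are of RefSeq's GRCh38.p14 tables, the RefSeq release of the genome that the reads were aligned to. Capitals mark CG dinucleotides. The GALNT16 window lies at chr14:69259908-69260207 on the plus strand, CHST7 at chrX:46573515-46573814 on the plus strand, HS3ST1 at chr4:11428845-11429144 on the minus strand and HS6ST3 at chr13:96089857-96090156 on the plus strand.
GALNT16: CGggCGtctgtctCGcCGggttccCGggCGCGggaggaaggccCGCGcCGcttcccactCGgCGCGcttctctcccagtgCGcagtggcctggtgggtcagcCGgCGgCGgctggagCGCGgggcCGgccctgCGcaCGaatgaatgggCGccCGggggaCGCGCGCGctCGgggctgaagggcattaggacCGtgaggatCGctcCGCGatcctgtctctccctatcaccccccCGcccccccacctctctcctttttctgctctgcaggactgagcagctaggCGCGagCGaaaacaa
CHST7: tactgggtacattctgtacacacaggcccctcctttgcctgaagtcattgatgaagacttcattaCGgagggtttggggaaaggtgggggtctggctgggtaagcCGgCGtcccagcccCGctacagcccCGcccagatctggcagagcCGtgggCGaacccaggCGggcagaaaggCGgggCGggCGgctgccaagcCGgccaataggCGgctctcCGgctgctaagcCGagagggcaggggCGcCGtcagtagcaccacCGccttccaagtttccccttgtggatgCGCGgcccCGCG
HS3ST1: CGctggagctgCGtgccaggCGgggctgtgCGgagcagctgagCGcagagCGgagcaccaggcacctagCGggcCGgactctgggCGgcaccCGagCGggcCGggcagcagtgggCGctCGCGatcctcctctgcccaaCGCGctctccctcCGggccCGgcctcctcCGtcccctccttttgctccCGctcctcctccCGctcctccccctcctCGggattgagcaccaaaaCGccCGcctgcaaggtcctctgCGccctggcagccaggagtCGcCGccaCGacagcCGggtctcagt
HS6ST3: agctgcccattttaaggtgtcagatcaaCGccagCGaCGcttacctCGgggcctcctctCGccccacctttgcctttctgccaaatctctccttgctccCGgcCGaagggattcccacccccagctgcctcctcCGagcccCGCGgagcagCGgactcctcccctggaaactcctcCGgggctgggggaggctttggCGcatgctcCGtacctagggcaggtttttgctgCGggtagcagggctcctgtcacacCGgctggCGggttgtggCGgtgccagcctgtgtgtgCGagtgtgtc

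These windows held 37 CG dinucleotides in GALNT16, 22 in CHST7, 30 in HS3ST1 and 19 in HS6ST3, so GALNT16 and HS3ST1 were above and CHST7 and HS6ST3 below the median of 26 for all tested genes. Among the members, 90 had a RefSeq window. The median was 27 CG dinucleotides for the 5 of the 8 higher members with a window, 21 for the 5 of the 7 lower members, and 33.5 for the 36 uncalled tested members, beside 14 for all 27303 windows. MGAT4B, with 8, was the lowest of the called members. Its window (chr5:179802826-179803125, minus strand) lies inside the gene, whose annotated 5′ end is at 179806952, so it may not show the main promoter. The printed windows of GALNT16 and HS3ST1 also lie inside their genes, whose annotated 5′ ends are at 69259277 and 11429564. The same limit holds for them. The letters GGGCGG, searched on both strands, occurred in 4 of the 5 higher and 3 of the 5 lower windows, and in 70.3% of the windows of tested genes and 44.6% of all windows. TATAAA, also searched on both strands, occurred in 1 of these 10 windows, in 5.21% of those of tested genes and in 12% of all windows. CBX8 occupancy of these starts was not analysed here.

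A gene was tested when it passed edgeR's filter on low counts, which here asked for 1.21 CPM (read counts scaled to a common library size) in at least 3 libraries, and it was called when its Benjamini-Hochberg adjusted p in edgeR's quasi-likelihood test, adjusted over all 14461 tested genes, was below 0.05. By this rule 15 of the 57 tested members were called, 26.3%, where 12.9% of all tested genes were called. The 15 include GALNT16, which passed the filter only through the re-expression libraries. Of the tested members 8 were higher, against a background of 6.23%, and 7 were lower, against 6.63%. The 3 libraries of one group lay wholly above or below the other group for 19 of 57 members, beside 28.9% of all tested genes. The size of change was ordinary: the median absolute log2 fold change was 0.13 both for the tested members and for all tested genes, and the members had a median level of 28.7 CPM beside 23.3 CPM for all tested genes.

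**Figure D1:**
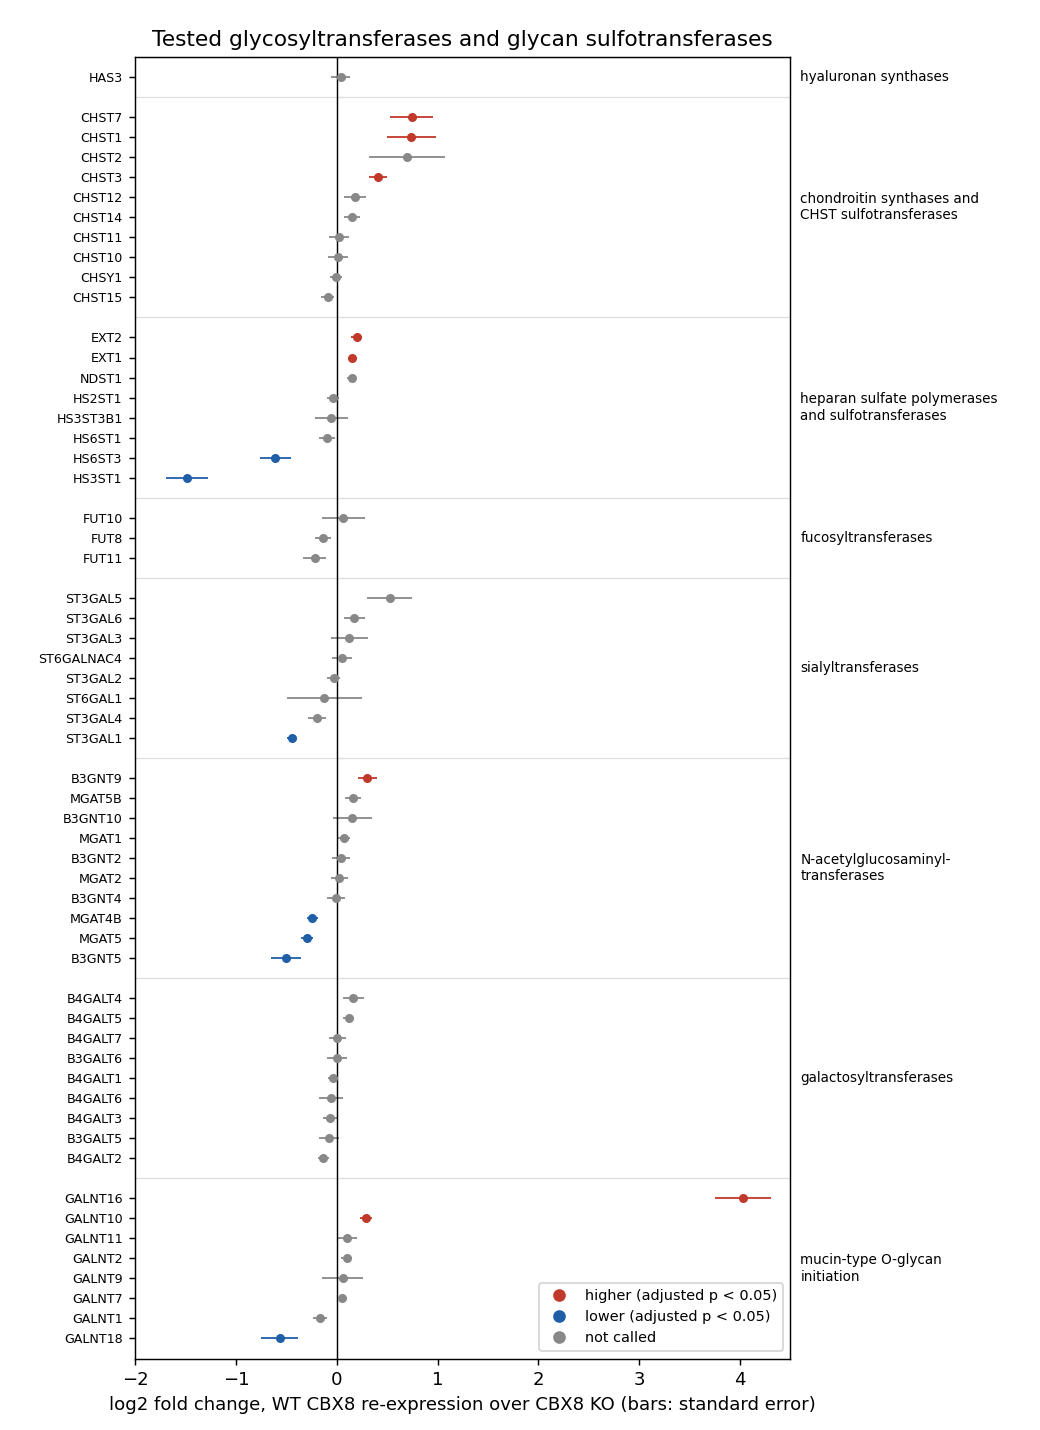
Log2 fold change (x axis, WT CBX8 re-expression over CBX8 KO, bars give the standard error) of the 57 tested members, grouped by class on the y axis. Most members lie close to 0, GALNT16 stands alone at 4.03 and HS3ST1 marks the other end at -1.49.

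Mucin-type O-glycan initiation carried the largest change. GALNT16, which adds the first GalNAc of mucin-type O-glycans (chromosome 14, 69259277 to 69357033 in GENCODE release 44 on hg38), had 3, 4 and 6 reads in the CBX8 KO libraries and 70, 83 and 78 upon WT CBX8 re-expression. The groups were far apart, and the gene went from close to undetected to a low level, 0.541 ± 0.203 CPM to 9 ± 0.675 CPM (mean ± SD, n = 3 libraries). A log2 fold change of 4.03 ± 0.28 (SE) was obtained (edgeR quasi-likelihood test, adjusted p = 5.55e-11). The ratio of the pooled, scaled reads was 16.7, with a 95% interval from counting error alone of 9.59 to 31.9. GALNT16 passed the filter only through the re-expression libraries, since none of the CBX8 KO libraries reached 1.21 CPM, so among tested genes it had to differ. In these bulk libraries, more cells with the transcript and more transcript per cell cannot be told apart, here or for the other members.

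Per kilobase of its canonical transcript, GALNT16 rose from 0.132 to 2.19 CPM and moved from place 9 to place 6 among the 18 GALNT genes. It stayed far below GALNT2, the highest of the family at 61 and 65.2 CPM per kb, whose own log2 fold change was 0.10 ± 0.05 (adjusted p = 0.263). Its closest relative among the members by sequence, GALNT14, with 74% identity over 1044 bases of coding sequence, had no read in any library. Of the 8 tested genes within 500 kb of GALNT16, the zinc finger gene ZFP36L1 was lower (log2 fold change -0.22) and the others were not called, with a range from -0.22 to 0.12 for all 8.

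GALNT18 moved the other way. It had 57, 56 and 71 reads in CBX8 KO and 52, 41 and 39 upon WT CBX8 re-expression, and once scaled to library size its groups did not overlap (7.64 ± 1.28 and 5.15 ± 0.837 CPM). Its log2 fold change was -0.57 ± 0.18 (adjusted p = 0.0371), a call that was lost when CBX8 KO replicate 1 or 3 or re-expression replicate 2 or 3 was left out. The call was also lost in DESeq2, with library size scaling and with a replicate block. GALNT10, which adds GalNAc to peptides that already carry one, rose by a smaller and steadier amount, with 699, 774 and 624 reads against 892, 930 and 901 (log2 fold change 0.29 ± 0.06, adjusted p = 0.000958). The broadly expressed GALNT1 and GALNT7 were not called, at log2 fold changes of -0.17 (adjusted p = 0.112) and 0.05 (adjusted p = 0.573). Of the 18 members of the class, 8 were tested, 2 were higher and 1 was lower, 37.5% together beside 12.9% of all tested genes. This share counts GALNT16, which passed the filter only through the re-expression libraries. The 10 untested ones had at most 6 reads in a library.

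**Figure D2:**
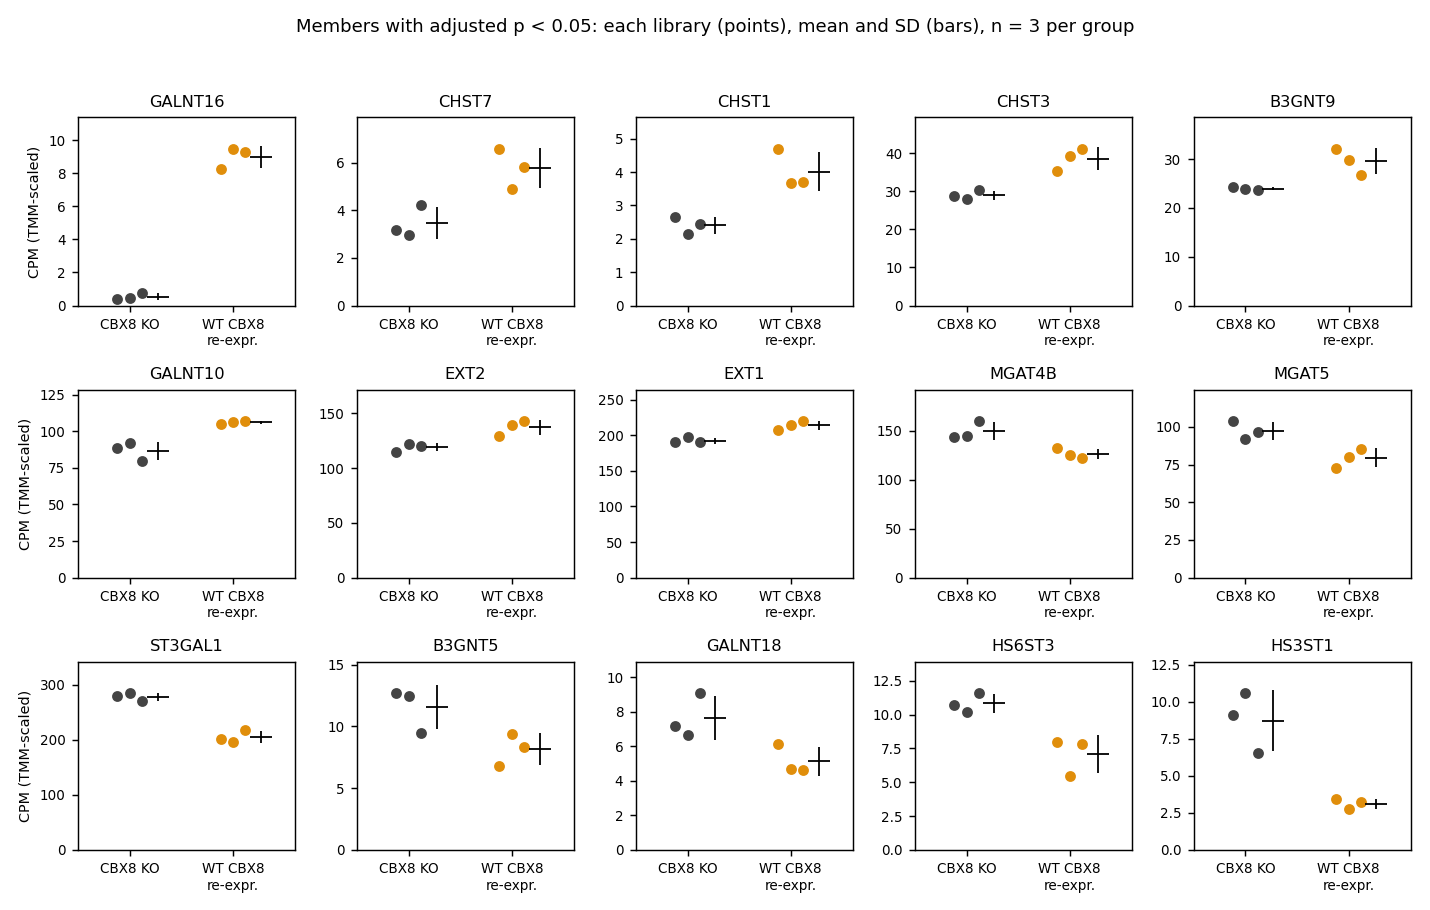
CPM scaled by TMM (y axis, from 0) of the 15 called members in each library, with CBX8 KO in grey and WT CBX8 re-expression in orange, and the mean and SD of 3 libraries at the right of each group. GALNT16 goes from below 1 to above 8 CPM. EXT1 and EXT2 shift little for their level, from means of 192 to 214 and 119 to 137 CPM, without overlap of the groups.

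Among the heparan sulfate enzymes, the sulfotransferases HS3ST1 and HS6ST3 fell and the backbone polymerases EXT1 and EXT2 rose. HS3ST1 makes the 3-O-sulfated motif to which antithrombin binds (chromosome 4, 11393150 to 11429564). It had 72, 89 and 51 reads in CBX8 KO and 29, 24 and 27 upon WT CBX8 re-expression. Every re-expression library was lower than every CBX8 KO library, although CBX8 KO replicate 3 sat below the other two (8.73 ± 2.05 CPM against 3.12 ± 0.343). The log2 fold change was -1.49 ± 0.20 (adjusted p = 9.04e-06), and the pooled reads were 2.82 times as high in CBX8 KO with a counting interval of 2.17 to 3.69. No gene within 500 kb of HS3ST1 was tested. HS3ST3B1, the other 3-O-sulfotransferase with enough reads, was at 7.43 ± 1.23 and 7.14 ± 0.868 CPM (adjusted p = 0.879). HS3ST3B1 is 99.1% identical to HS3ST3A1 over 774 coding bases, so reads in that stretch could be assigned to either.

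HS6ST3, a 6-O-sulfotransferase, had 85, 86 and 91 reads in CBX8 KO and 68, 48 and 66 upon WT CBX8 re-expression. The groups did not overlap, and re-expression replicate 2 was the lowest library. Its log2 fold change was -0.61 ± 0.15 (adjusted p = 0.00741), and without re-expression replicate 2 the adjusted p was 0.0847. HS6ST1, its closest relative at 75.9% identity over 916 coding bases, was more abundant per length, at 9.52 and 8.91 CPM per kb beside 1.27 and 0.833 for HS6ST3. It had a log2 fold change of -0.09 ± 0.08 (adjusted p = 0.497). Whether the 2 relatives differed in their response was not tested.

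EXT1 and EXT2, the partners of the heparan sulfate polymerase, both rose slightly. EXT1 had 1502, 1655 and 1488 reads against 1764, 1877 and 1852 (log2 fold change 0.16 ± 0.05, adjusted p = 0.0336), and EXT2 had 914, 1030 and 940 against 1098, 1213 and 1202 (0.20 ± 0.05, adjusted p = 0.0136). With 1 library removed at a time, EXT1 kept its call in 1 of 6 fits, the one without re-expression replicate 1, and EXT2 in 3 of 6, losing it without CBX8 KO replicate 1 or re-expression replicate 2 or 3. NDST1, which starts sulfation by exchanging acetyl for sulfate and was the highest heparan sulfate enzyme per length at 45.9 and 51 CPM per kb, came closest to a call without reaching it (log2 fold change 0.15 ± 0.05, adjusted p = 0.0608). NDST1 passed in 5 of the 15 alternative fits: with upper quartile or library size scaling, in limma voom, and without CBX8 KO replicate 3 or re-expression replicate 1, with adjusted p-values over all 15 from 0.00747 to 0.25. HS2ST1, the 2-O-sulfotransferase, had a log2 fold change of -0.04 ± 0.06 (adjusted p = 0.722). In total 2 of the 8 tested heparan sulfate members rose and 2 fell, 50% together beside 12.9% of all tested genes. Of the 17 members, 9 had too few reads.

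Among the chondroitin synthases and the CHST sulfotransferases, all called members were higher: 3 of the 10 tested rose, beside 6.23% of all tested genes. Of these edgeR calls, DESeq2 did not keep CHST1 and CHST7, and limma voom did not keep CHST1. None fell in edgeR, DESeq2 or limma voom or at an unadjusted p below 0.05, while 6.63% of all tested genes were lower in edgeR. With 10 tested members, the absence of a lower call is close to that background. CHST3 and CHST7 both place sulfate at the 6 position of chondroitin GalNAc, and CHST1 does so on keratan sulfate galactose. CHST3 had 228, 236 and 237 reads in CBX8 KO and 300, 343 and 346 upon WT CBX8 re-expression (log2 fold change 0.41 ± 0.09, adjusted p = 0.00202). CHST7 had 25, 25 and 33 reads against 56, 43 and 49 (log2 fold change 0.74 ± 0.21, adjusted p = 0.0183). CHST7 lost its call in DESeq2 and without CBX8 KO replicate 1 or 2 or re-expression replicate 1. CHST1 had 21, 18 and 19 reads against 40, 32 and 31 (log2 fold change 0.74 ± 0.24, adjusted p = 0.0446). In each of the 3 genes the groups were apart, but CHST1 rested on few reads and lost its call whenever any 1 library was left out, with adjusted p-values up to 0.186 over all alternatives.

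The other sulfation positions of chondroitin gave no call. The 4-O-sulfotransferases CHST11 and CHST12 had log2 fold changes of 0.02 ± 0.10 (adjusted p = 0.922) and 0.18 ± 0.11 (adjusted p = 0.325), the dermatan sulfate 4-O-sulfotransferase CHST14 had 0.15 ± 0.08 (adjusted p = 0.268), and CHST15, which adds a further sulfate to GalNAc 4-sulfate, had -0.09 ± 0.07 (adjusted p = 0.433). CHST2, a GlcNAc 6-O-sulfotransferase and the closest relative of CHST7, had 6, 12 and 8 reads against 18, 10 and 17, and its overlapping groups gave a log2 fold change of 0.70 ± 0.38 (adjusted p = 0.254). CHSY1, a chondroitin synthase and the highest of the class per length on the mean of both groups, was at 19.2 and 19.1 CPM per kb, beside 17.6 and 19.6 for CHST14. HAS3, the one hyaluronan synthase with enough reads to test, was at 26 ± 1.15 and 26.7 ± 1.2 CPM (adjusted p = 0.841), HAS1 had at most 4 reads in a library, and HAS2 had no read in any library.

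In the N-glycan branching pathway, MGAT5 and MGAT4B both fell. MGAT5 makes the branch that is commonly extended with poly-N-acetyllactosamine and had 825, 775 and 755 reads in CBX8 KO and 620, 701 and 719 upon WT CBX8 re-expression (log2 fold change -0.30 ± 0.06, adjusted p = 0.00202). MGAT4B makes another branch of complex N-glycans and had 1137, 1221 and 1248 reads against 1121, 1092 and 1028 (log2 fold change -0.24 ± 0.05, adjusted p = 0.00316). Both kept their calls in every alternative fit. MGAT4B was also the most abundant N-acetylglucosaminyltransferase per length, at 63.2 and 53.4 CPM per kb, while its closest relative MGAT4A had at most 3 reads in a library. MGAT1, which opens the pathway to complex N-glycans, had a log2 fold change of 0.07 ± 0.06 (adjusted p = 0.499), and MGAT5B, the relative of MGAT5 that acts on O-mannose glycans, had 0.16 ± 0.08 (adjusted p = 0.207).

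The B3GNT genes extend chains with GlcNAc. B3GNT5, which starts lacto-series glycolipids, had 101, 105 and 74 reads in CBX8 KO and 58, 82 and 70 upon WT CBX8 re-expression. CBX8 KO replicate 3 and re-expression replicate 2 nearly met after scaling, and the log2 fold change was -0.50 ± 0.15 (adjusted p = 0.0261). B3GNT5 was no longer called in DESeq2 or without CBX8 KO replicate 1 or 2 or re-expression replicate 1. B3GNT9 rose, with 192, 201 and 185 reads against 273, 260 and 225 (log2 fold change 0.30 ± 0.09, adjusted p = 0.0331), and of the 6 fits to 5 libraries, kept its call only in the one without re-expression replicate 3. Annotated exons of the opposite strand cover 16.2% of the exon bases of B3GNT5 (from MCF2L2) and 16.3% of those of B3GNT9 (from PHAF1). The strand setting of the counting is not given in the sources used here, so reads in these stretches could belong to either gene. In this class 3 of 10 tested members fell and 1 rose, 40% together beside 12.9% of all tested genes.

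ST3GAL1, which caps the core 1 O-glycan with sialic acid (chromosome 8, 133454848 to 133571926), was the abundant member with the clearest fall. It had 2214, 2395 and 2120 reads in CBX8 KO and 1714, 1714 and 1820 upon WT CBX8 re-expression, which left a wide gap between the groups (278 ± 6.67 and 205 ± 10.8 CPM). The log2 fold change was -0.44 ± 0.05 (adjusted p = 3.95e-07), or 1.36-fold. Per kilobase it remained the highest sialyltransferase in both groups, at 41.5 and 30.5 CPM per kb. ST3GAL2, its closest relative with 71.9% identity over 555 coding bases, was at 51.6 ± 0.682 and 50.4 ± 1.61 CPM (adjusted p = 0.822), and ST3GAL4 had a log2 fold change of -0.20 ± 0.09 (adjusted p = 0.16). ST3GAL5, the synthase of the ganglioside GM3, had 23, 23 and 29 reads against 42, 36 and 37. Its groups did not overlap, but the log2 fold change of 0.53 ± 0.22 did not pass the test (adjusted p = 0.131). Of the 24 sialyltransferase symbols 16 were not tested, and ST8SIA members had at most 5 reads in a library.

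**Figure D3:**
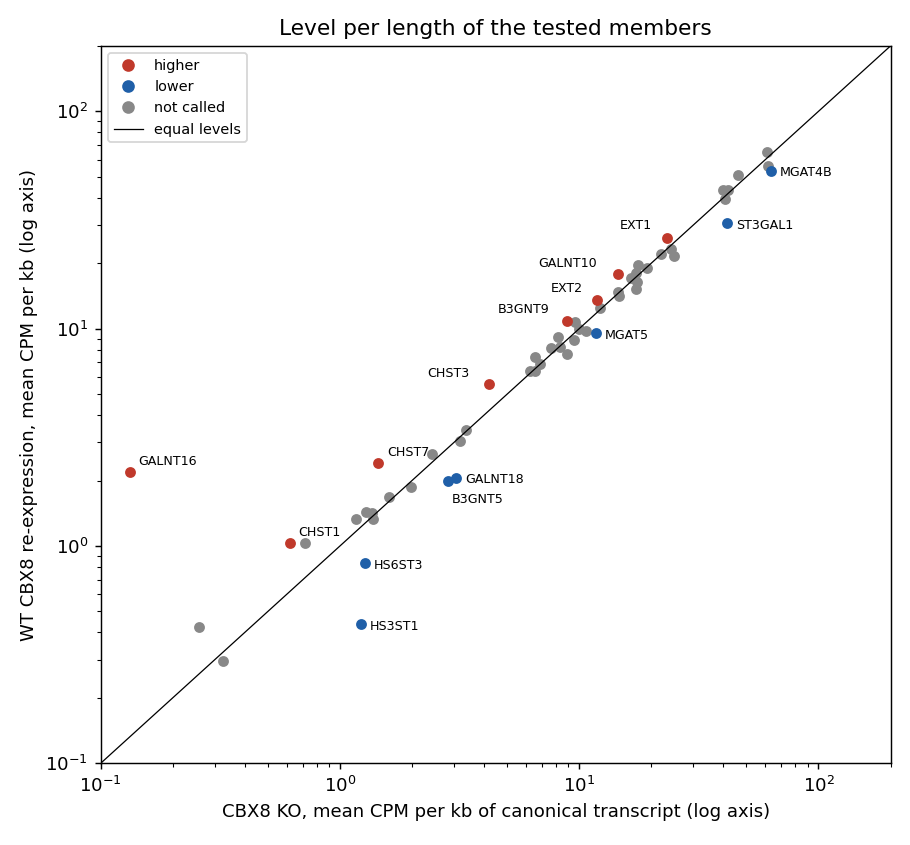
Mean level of each tested member in CPM per kb of its canonical transcript, CBX8 KO on the x axis and WT CBX8 re-expression on the y axis, both on log axes, with a line at equal levels. GALNT16 lies far above the line from 0.132 to 2.19, HS3ST1 below it from 1.22 to 0.436, and the abundant members follow the line, with ST3GAL1 visibly under it.

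Galactosyltransferases and fucosyltransferases gave no call, where 12.9% of all tested genes were called. None of the 9 tested galactosyltransferases passed in edgeR, DESeq2 or limma voom, 2 had an unadjusted p below 0.05, and their log2 fold changes lay between -0.13 and 0.17. B4GALT2, the highest of them per length at 61.5 and 56.1 CPM per kb, had the fall closest to the threshold (-0.13 ± 0.05, adjusted p = 0.0909), B4GALT1, the main enzyme of N-glycan galactosylation, had -0.04 ± 0.05 (adjusted p = 0.68) and B4GALT5, a lactosylceramide synthase, 0.12 ± 0.05 (adjusted p = 0.171). B4GALT5 passed (adjusted p = 0.0266) where libraries were scaled by their totals alone. None of the 3 tested fucosyltransferases passed in any of these tools or at an unadjusted p below 0.05. FUT8, which adds the core fucose of N-glycans, had -0.14 ± 0.08 (adjusted p = 0.272) and FUT11 had -0.22 ± 0.11 (adjusted p = 0.213).

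In all, 67 of the 124 members were not tested. Of these, 32 had no read in any library and 35 had reads, at most 14 in a library. Among them, GALNT5, GALNT8, B3GNT7 and HS3ST5 had at most 5 reads in a library. They gave the best single stretch of coding match for GALNT10, GALNT18, B3GNT9 and HS3ST1. For GALNT10 and GALNT5, the aligned bases were only 207 of 1809 coding bases. GALNT5 therefore need not be the closest relative of GALNT10 over the whole coding sequence. Some untested members are hard to count. B3GALT4 and HS3ST6, without a read, have 4 copies and 1 copy on alternate contigs of the genome. Annotated exons of other genes cover 94.1% of the exon bases of GALNT4, 82.9% of NDST2 and 82.5% of FUT5. Whether reads of these genes were lost in counting was not tested, so few reads need not mean little transcript. FUT1, which makes the H blood group antigen, was the one untested member that passed when no filter was applied: it had 2, 1 and 1 reads in CBX8 KO and 7, 12 and 4 upon WT CBX8 re-expression, and gave a log2 fold change of 2.32 (adjusted p = 0.0204). Its pooled ratio was 5.41 with a counting interval of 1.85 to 21.5. B3GALT2 had 1, 2 and 0 reads against 8, 4 and 4, and its log2 fold change of 2.19 did not pass without a filter (adjusted p = 0.108).

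The surroundings of these enzymes were described with a list of 122 genes for donor supply, Golgi transport, other assembly steps, proteoglycan core proteins and glycan breakdown. Of the 96 tested, 9 were higher and 9 were lower, 18.8% together beside 12.9% of all tested genes. With scaling by library totals alone 14 were higher and 7 lower, and the 9 higher genes became 3 without re-expression replicate 2 and 4 without CBX8 KO replicate 2. The proteoglycan core proteins moved in both directions, 4 lower and 2 higher of 16 tested, 37.5% together beside the same 12.9%. The cell-surface glypican GPC6 fell from 726, 702 and 697 reads to 430, 459 and 480 (log2 fold change -0.72 ± 0.06, adjusted p = 6.3e-09), and the chondroitin sulfate proteoglycan versican, VCAN, fell from 255, 236 and 233 to 160, 140 and 169 (-0.71 ± 0.10, adjusted p = 1.77e-05). Both were clear of overlap. The basement membrane heparan sulfate proteoglycans perlecan, HSPG2, and agrin, AGRN, rose, with log2 fold changes of 0.45 ± 0.06 (adjusted p = 5.5e-06) and 0.40 ± 0.06 (adjusted p = 7.38e-05). The third largest fall in this group was that of GPC1 (-0.26 ± 0.05, adjusted p = 0.000628).

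Donor supply gave 3 higher and 3 lower genes of 20 tested, 30% together beside 12.9% of all tested genes. UGDH, which makes the UDP-glucuronic acid used for heparan sulfate, chondroitin sulfate and hyaluronan, fell from 1588, 1538 and 1295 reads to 969, 1055 and 1059 (log2 fold change -0.61 ± 0.06, adjusted p = 5.02e-08), and the groups did not overlap. Both synthases of the sulfate donor PAPS changed, in opposite directions: PAPSS1 fell (-0.25 ± 0.07, adjusted p = 0.0125) and PAPSS2 rose (0.16 ± 0.05, adjusted p = 0.0285). UAP1, which makes UDP-GlcNAc, rose (0.24 ± 0.06, adjusted p = 0.0065), as did GFPT1, the entry enzyme of the hexosamine pathway (0.20 ± 0.06, adjusted p = 0.0396), while GMDS, the first enzyme of GDP-fucose synthesis, fell (-0.34 ± 0.11, adjusted p = 0.0349). Of the 8 Golgi transporters, SLC35D1, a carrier of UDP-glucuronic acid and UDP-GalNAc, was lower (-0.24 ± 0.06, adjusted p = 0.0118). This share, 12.5%, was about that of all tested genes, 12.9%.

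Of 29 other assembly enzymes tested, 4 were higher and 1 was lower, 17.2% together and not far from the 12.9% of all tested genes. LFNG, the fringe enzyme that extends O-fucose on Notch receptors, rose from 46, 53 and 52 reads to 105, 98 and 81 (log2 fold change 0.82 ± 0.15, adjusted p = 0.000358). GCNT1, which branches core 1 O-glycans to core 2, rose by 0.42 ± 0.12 (adjusted p = 0.0175), and XYLT1, which adds the first sugar of the proteoglycan linker, by 0.21 ± 0.06 (adjusted p = 0.0277). DSE, the epimerase of dermatan sulfate, fell (-0.37 ± 0.07, adjusted p = 0.000831). None of the 23 tested glycan-degrading enzymes was called by edgeR, beside 12.9% of all tested genes, or by DESeq2 or limma voom. Their log2 fold changes ran from -0.23 to 0.35, 6 of them at an unadjusted p below 0.05, and 2 passed with scaling by library totals alone.

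The calls differed in how firmly they held. GALNT16, ST3GAL1, HS3ST1, GALNT10, CHST3, MGAT5 and MGAT4B stayed below 0.05 in each of the 15 alternative fits, which changed the scaling, the filter or the tool, added a replicate block or left out a library. GALNT18, B3GNT9, EXT1 and CHST1 lost the call in 7 to 10 of the 15, mostly in fits with 5 libraries and in DESeq2. B3GNT5 and CHST7 each lost it in 4, DESeq2 among them, EXT2 in 3 and HS6ST3 in 1. No called member changed direction in any of them. For GALNT16, which passed the filter only through the group where it is high, the steady call is no separate support.

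**Figure D4:**
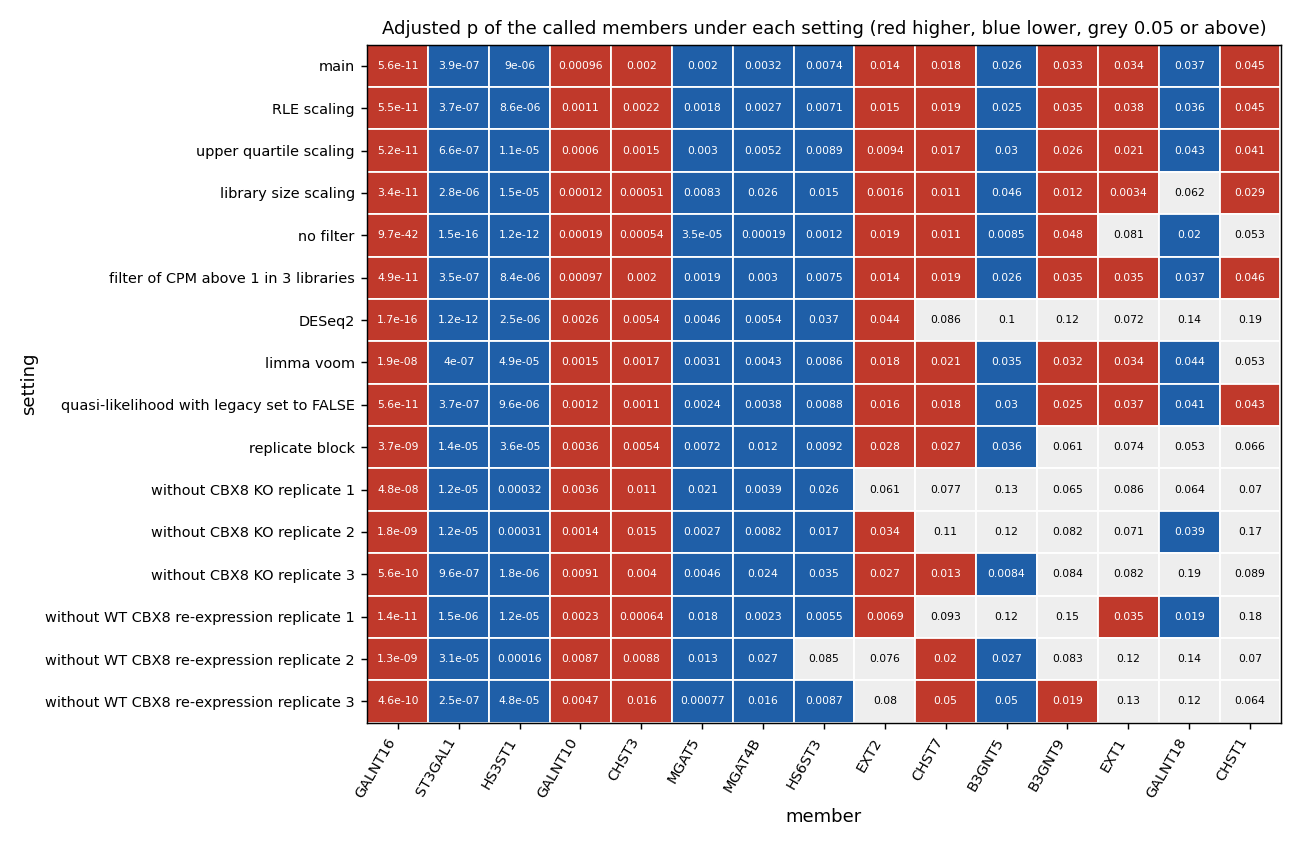
Adjusted p (number in each cell) of the 15 called members (x axis, from the smallest to the largest adjusted p) under the reported fit and 15 alternatives (y axis). Red cells are higher and blue cells lower upon WT CBX8 re-expression at an adjusted p below 0.05, grey cells are at 0.05 or above, and the 7 members named as stable keep their colour from top to bottom.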

How the data were processed

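RNA-seq was analysed for 3 CBX8 KO and 3 WT CBX8 re-expression libraries, grouped by their titles. The deposited values are raw read counts for each gene symbol, which the authors made from reads checked with FastQC, trimmed with Trimmomatic and aligned to hg38 with HISAT2. The counting program, its annotation, its strand setting and all versions are not given in the sources used here, so reads of overlapping or near-identical genes may have been split in more than 1 way. Intervals cover counting error only.

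In R 4.3.3, the 14461 genes that passed filterByExpr of edgeR 4.0.16 (1.21 CPM in 3 libraries) were normalized by TMM and compared by glmQLFit and glmQLFTest with condition as the only term. Benjamini-Hochberg adjustment ran over all tested genes, with a threshold of 0.05. Standard errors were derived from the log2 fold change and its quasi-likelihood F statistic. CPM per kb divides by the length of the canonical transcript of GENCODE release 44, to which all 124 symbols were matched (123 by name, 1 by a synonym). The closest relative of a member was the one with the best-scoring single translated match between coding sequences in BLAST 2.17.0. Such a match can be short. Copies on alternate contigs were found with minimap2 2.31. Promoter windows were those of RefSeq, 300 bases around a start, with the first listed window used for each gene. The test was checked on simulated counts.

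The members, the pathway list and the rules for naming genes were chosen with earlier results of these data known. Called members were all named. Uncalled members were named where they were the highest uncalled member of their class per length or closest in sequence to a called member. GALNT7, GALNT1, B4GALT1, B4GALT5, ST3GAL5, FUT11, HS2ST1, HS3ST3B1, CHST11, CHST12, CHST14 and CHST15 were added after their values were seen. Some members with too few reads to test were named as well. The fit was repeated with scaling by RLE, by the upper quartile or by library size, with no filter, a CPM filter, DESeq2 1.42.0, limma 3.58.1 voom, the non-legacy quasi-likelihood method, a replicate block, each library left out, and stricter thresholds. Where a library was left out, the smaller group kept 2 libraries. Same-condition libraries differed by more than sampling noise (chi-square per degree of freedom 1.96 to 2.9).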

Additional observations from a re-analysis of the deposited data

How the results depend on the processing

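Of the 15 called members, 15 kept the call with RLE or upper quartile scaling, with a filter of CPM above 1 and with the non-legacy method, 14 with library size scaling or limma voom, 13 without a filter, 11 with a replicate block, 9 in DESeq2, and 8 to 11 when 1 library was left out. Without CBX8 KO replicate 1 it was 8 and without re-expression replicate 2 it was 9. Library size scaling moved the median log2 fold change of all genes to 0.06 from 0.00, and lost GALNT18 while NDST1 and B4GALT5 passed.

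The 8 higher members became 4 in DESeq2, 5 with the replicate block, 4 to 6 with a library left out, 3 at an adjusted p below 0.01 and 3 at a change of at least 1.5-fold. The 7 lower members ranged from 5 to 6 with a library left out and were 2 at 1.5-fold. The 9 higher pathway genes became 14 with library size scaling, 5 in DESeq2, 3 to 10 with a library left out (3 without re-expression replicate 2, 4 without CBX8 KO replicate 2), 4 below 0.01 and 1 at 1.5-fold, and the 9 lower ones 6 to 10 with a library left out and 3 at 1.5-fold. The share of all tested genes called was not counted for the alternative fits. The counts therefore do not say whether members lost calls more often than other genes. The cause of these shifts was not tested.

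The replicate numbers gave no sign of pairing the libraries. Over all 14461 tested genes, the deviations of same-numbered libraries from their group means correlated at -0.09, -0.03 and -0.02. With 3 libraries per group and sampling noise in low counts, values near 0 cannot exclude a pairing. The replicate block, which lost GALNT18, B3GNT9, EXT1 and CHST1, was taken as another fit. No called member changed direction. Among uncalled members near 0, the log2 fold change changed sign for CHSY1 with upper quartile (0.0023) and library size scaling (0.0448) and between -0.0454 and 0.0338 with a library left out. Library size scaling also turned ST3GAL2 (0.0233), B4GALT1 (0.0165) and HS2ST1 (0.0153). With a library left out, HS3ST3B1 ranged from -0.1566 to 0.0849 and CHST11 from -0.0004 to 0.0450. CHST1 and CHST2 had at most 40 reads in a library and standard errors of 0.24 and 0.38 on the log2 scale, beside 0.05 for EXT1 and ST3GAL1.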
